A study of Mus musculus with 24 samples.

Results

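The complement components and receptors described here are 9 genes of the mouse hippocampus, measured by 12 array probes. C1qa, C1qb and C1qc encode the chains of C1q, C4b and C3 encode the opsonin precursors downstream of it, and Serping1 encodes the C1 inhibitor. C3ar1 and C5ar1 encode the receptors for the C3a and C5a fragments, and Itgam encodes CD11b, the alpha chain of complement receptor CR3. The genes were taken by name, as all probes that the RefSeq accession in the scanner files assigns to them. They are 9 of the 35260 features tested, of which 18562 were genes with a symbol and 16698 were single probes without one. C3, C4b and Itgam had 2 probes each and the other 6 genes had 1. All 12 probes passed the filter on low signal, and 11 of them were well above background on all 24 arrays.

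Complement is a cascade of plasma and tissue proteins that tags surfaces for uptake. In the classical pathway C1q binds a target and its associated proteases cleave C4 and C2, which form a convertase that splits C3 into the opsonin C3b and the small fragment C3a. In the brain, C1q is made largely by microglia, C4 and C3 can be made by astrocytes and other glia, and microglia carry CR3 and the fragment receptors. The pathway is known for its part in the removal of synapses by microglia and for the presence of C1q and C3 fragments around amyloid plaques.

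The study measured hippocampal RNA of 24 male mice on Agilent one-colour arrays, with 1 array per sample. All mice are of the line labelled APP-PS1, a model of amyloid deposition in which the mouse prion protein promoter drives the transgenes. The WT groups are labelled as negative for both transgenes. At the end of treatment there were APP-PS1_UA (n = 4, transgenic, given urolithin A), APP-PS1_CTR (n = 3, transgenic, water) and WT_CTR (n = 4, water). After a washout of 1 month without gavage there were APP-PS1_UA-WASHOUT (n = 5), APP-PS1_WASHOUT (n = 3) and WT_WASHOUT (n = 5), which had been given urolithin A, water and water before it. Urolithin A is a gut microbial metabolite of ellagitannins, and gavage ran from 2 to 7 months of age. The sources differ on its dose, which is 200 mg/kg/day in one and 20 mg/kg/day in another. They also differ on age, since the sample labels give 8 months, or 9 months after washout, and the design text gives 7 months and 1 month later. Nothing in the labels ties an array to a named litter, and p-values measure the spread between these samples.

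The promoter windows of 4 members are shown because their genes did not all share a pattern across the arrays. The C1q genes moved together, and like C3ar1 they were called higher in transgenic than in WT groups after washout only. The level of C3 varied between arrays of one group. Each window is the 250 bases before the annotated start, 5′ to 3′ on the gene's strand, from RefSeq with build GRCm38.p6. Capitals mark AGGAAG on either strand, the core bound by PU.1 and other ETS factors, and, in C3 alone, the C/EBP-type motif TTNNGNAA. The windows are chr4:136886201-136886450 for C1qb, chr4:136892915-136893164 for C1qc, chr6:122856158-122856407 for C3ar1 and chr17:57228137-57228386 for C3, all on the minus strand. The last 22 bases of the C1qc window lie inside the annotated gene.
C1qb: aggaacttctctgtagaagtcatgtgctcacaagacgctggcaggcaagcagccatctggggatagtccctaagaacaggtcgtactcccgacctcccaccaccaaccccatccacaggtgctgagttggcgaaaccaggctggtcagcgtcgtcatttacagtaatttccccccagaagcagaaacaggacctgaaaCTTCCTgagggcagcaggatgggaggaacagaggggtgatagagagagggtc
C1qc: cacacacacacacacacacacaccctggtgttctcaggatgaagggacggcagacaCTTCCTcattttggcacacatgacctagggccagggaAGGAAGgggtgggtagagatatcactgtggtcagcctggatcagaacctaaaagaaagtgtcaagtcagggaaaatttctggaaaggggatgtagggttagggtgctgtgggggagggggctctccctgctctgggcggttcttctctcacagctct
C3ar1: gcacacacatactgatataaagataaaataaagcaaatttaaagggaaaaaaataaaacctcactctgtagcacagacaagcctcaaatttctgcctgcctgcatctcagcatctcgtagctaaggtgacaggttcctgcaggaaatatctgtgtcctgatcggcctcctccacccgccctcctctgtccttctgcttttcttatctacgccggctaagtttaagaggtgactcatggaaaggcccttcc
C3: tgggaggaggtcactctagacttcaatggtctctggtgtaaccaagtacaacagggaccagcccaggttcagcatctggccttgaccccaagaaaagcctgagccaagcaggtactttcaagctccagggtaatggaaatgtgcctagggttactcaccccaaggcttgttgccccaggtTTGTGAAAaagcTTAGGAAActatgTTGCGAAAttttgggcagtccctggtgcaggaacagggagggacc

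Of the 9 genes, 6 had a promoter entry, which leaves out C1qa, C4b and Serping1. AGGAAG, searched on both strands, was in the windows of 4 of the 6 genes (C1qb, C1qc, C5ar1 and Itgam), and 29.48% of all 32851 promoter windows hold it. The C/EBP-type motif was in 4 of the 6 (C1qc, C3, C5ar1 and Itgam), against 36.85% of all windows. Its 3 matches in C3 began 70, 58 and 45 bases before the start. The core of the interferon-stimulated response element was in 0 of the 6, against 2.98% of all windows. C1qb, C1qc and C1qa neighbour each other in that order on chromosome 4. The others lie on chromosomes 17 (C3 and C4b), 6 (C3ar1), 7 (C5ar1 and Itgam) and 2 (Serping1). In the C5ar1 window, 202 of the 250 bases lie inside the annotated gene, and its matches to both motifs fall within that stretch. The motif matches describe letters only, and no factor binding was measured.

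Between 63.7% and 76.9% of an array's spots were well above background, and 0 were saturated. The small number of arrays per group limits precision. There were 3 slides with 8 arrays each. Slide 1 held WT_CTR in array row 1, and APP-PS1_CTR with APP-PS1_UA replicate 1 in row 2. On slide 2 were APP-PS1_UA replicates 2 to 4 with all of WT_WASHOUT, and on slide 3 both transgenic washout groups. Genotype and slide therefore cannot be told apart after washout, and genotype and array row cannot be told apart on slide 1. On slide 3, APP-PS1_UA-WASHOUT replicates 2 to 5 were in row 2, with 63.7% to 69.9% of spots well above background, and its replicate 1 and APP-PS1_WASHOUT in row 1, with 73.8% to 76.9%, so treatment nearly coincides with row there. The first principal component carried 47.1% of the variance and set slide 3 apart. Hippocampal markers such as Prox1 and Wfs1 were well above background on every array. Prnp, whose promoter drives the transgenes, averaged 7.36 to 7.48 log2 units in the transgenic groups, against 5.88 to 6.05 in the WT groups.

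All levels are log2 processed signals minus the array's 75th percentile, so that 1 unit is a doubling, and levels of different probes cannot be compared. A gene is called higher or lower at a Benjamini-Hochberg adjusted p under 0.05 in the limma fit over all features. In bulk tissue, more cells of a type and more RNA per cell cannot be told apart.

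At the end of treatment, all 9 complement genes were higher on average in APP-PS1_CTR than in WT_CTR, and C4b was the only one called. The median difference of the 9 genes was 0.52 log2 units, against -0.00 over all features. In 6 of the 9 genes (the 3 C1q genes, C4b, C3ar1 and C5ar1) every APP-PS1_CTR array lay above every WT_CTR array. Of all features, 4.28% did so, and 0.167% were called higher. After washout, 7 of the 9 genes were called higher in APP-PS1_WASHOUT than in WT_WASHOUT. They were C1qa, C1qb, C1qc, C4b, C3ar1, C5ar1 and Itgam, while C3 and Serping1 were not called. The background was far higher there, with 19.8% of all features called higher and a median over all features of 0.07 log2 units, against 0.84 for the 9 genes. Groups did not overlap in 5 of the 9 genes, and 21.2% of all features had every APP-PS1_WASHOUT array above every WT_WASHOUT array.

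Urolithin A moved no complement gene past the threshold at either stage. In APP-PS1_UA, all 9 genes averaged below APP-PS1_CTR, with a median difference of -0.22 log2 units against -0.01 over all features. By limma, 0 of the 9 genes were called and 0% of all features were called lower. At an unadjusted p under 0.05, 1 of the 9 genes (Itgam) and 2623 of all features passed. After washout, 6 of the 9 genes averaged below APP-PS1_WASHOUT in APP-PS1_UA-WASHOUT, with a median difference of -0.03. There 0 of the 9 genes were called (1, C3, at an unadjusted p under 0.05, as were 2699 of all features), and 0.0425% of all features were called lower.

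**Figure D1:**
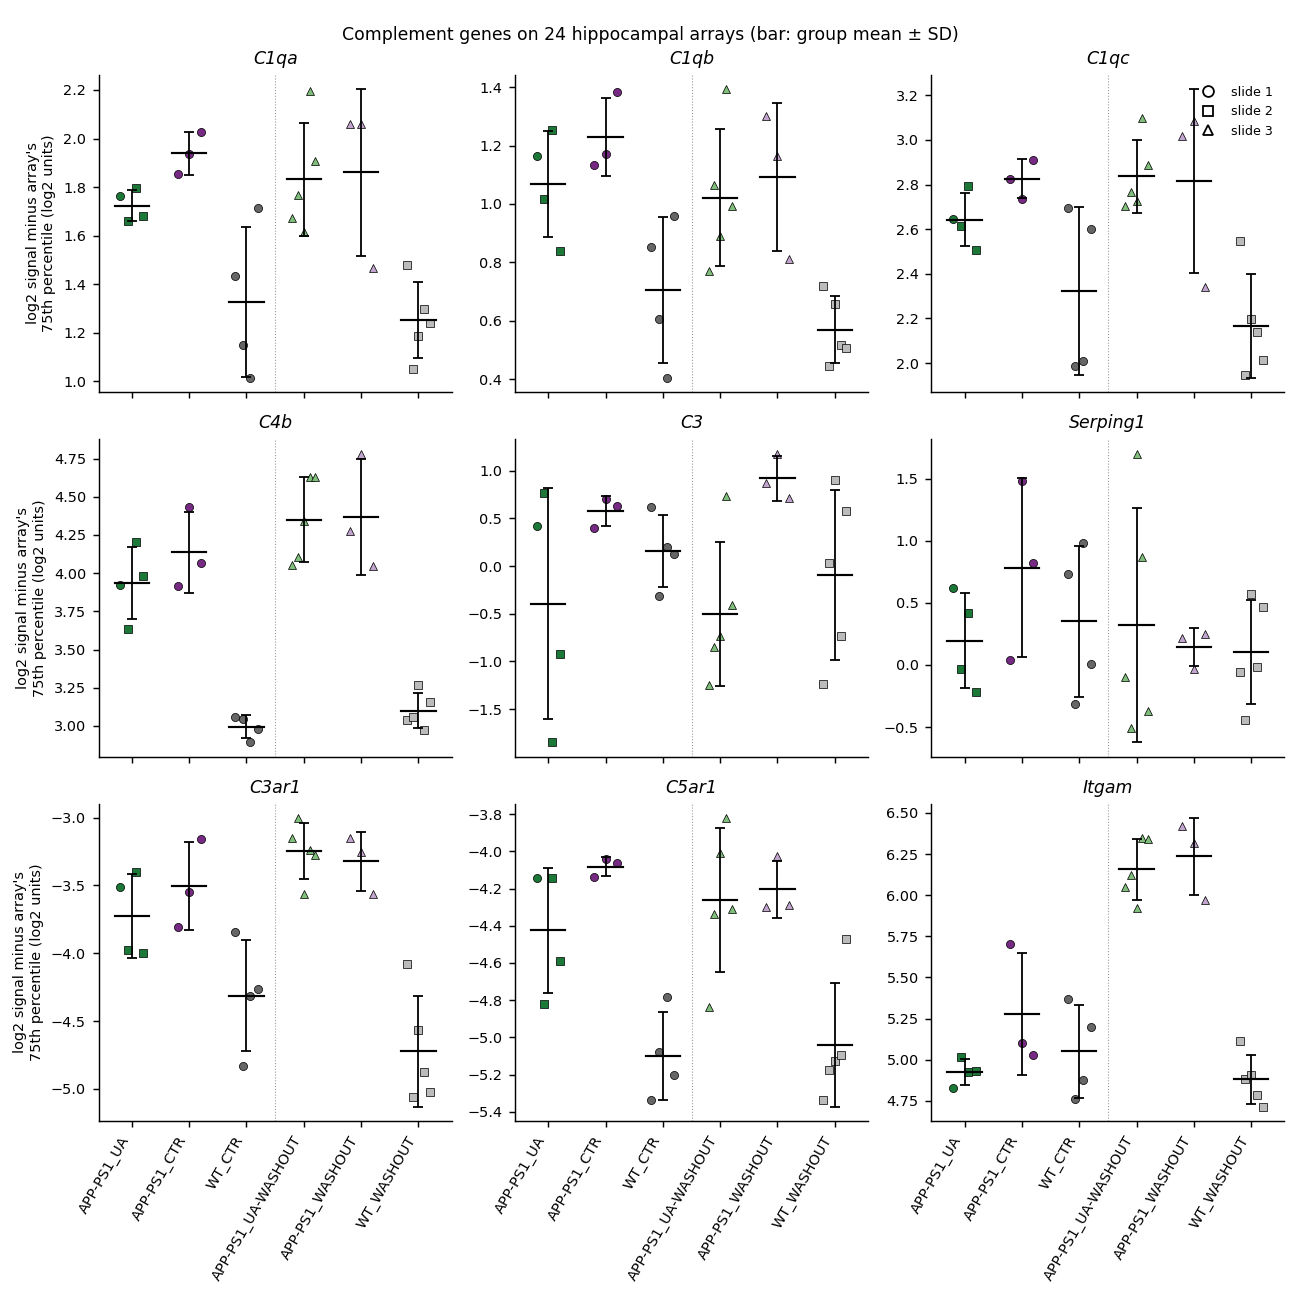
Level of each complement gene on each of the 24 arrays, as log2 processed signal minus the array's 75th percentile, with marker shapes for the slide and bars for the group mean ± SD (n = 3 to 5). C4b lies between 3.63 and 4.78 on the transgenic arrays, above all WT arrays, Itgam is high on slide 3 alone, and C3 and Serping1 spread widely within groups.

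The C1q genes encode the recognition molecule that starts the classical pathway. C1qa was 1.76, 1.66, 1.79 and 1.68 in APP-PS1_UA, and 1.85, 1.94 and 2.03 in APP-PS1_CTR, against 1.43, 1.15, 1.02 and 1.71 in WT_CTR. After washout it was 1.67, 1.77, 1.61, 2.19 and 1.91 in APP-PS1_UA-WASHOUT, and 2.06, 2.06 and 1.47 in APP-PS1_WASHOUT, against 1.48, 1.05, 1.19, 1.30 and 1.24 in WT_WASHOUT. The APP-PS1_CTR arrays were all above WT_CTR, 2 of 4 APP-PS1_UA arrays were above the highest WT_CTR array, and 1 APP-PS1_WASHOUT array fell within the WT_WASHOUT range.

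C1qa was 0.61 log2 units higher in APP-PS1_CTR than in WT_CTR (SE 0.17, adjusted p = 0.302) and 0.61 higher in APP-PS1_WASHOUT than in WT_WASHOUT (SE 0.16, adjusted p = 0.00705). The unadjusted values were 0.00157 and 0.00109. The difference between the 2 differences was -0.00 log2 units (95% confidence interval -0.49 to 0.48). The same size of difference was thus called at one stage and not at the other, where far fewer features of the array were called. C1qa in APP-PS1_UA was 0.22 log2 units below APP-PS1_CTR (95% interval -0.56 to 0.13, adjusted p = 0.758), with no overlap between the groups. Of all features, 4.61% had every APP-PS1_UA array below every APP-PS1_CTR array, and 3 of the 9 complement genes did, C1qa, C5ar1 and Itgam. The nearest APP-PS1_CTR and APP-PS1_UA arrays were almost level for C5ar1 (-4.139 and -4.145) and for Itgam (5.03 and 5.02).

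C1qb was 1.16, 1.02, 1.25 and 0.84 in APP-PS1_UA, and 1.13, 1.17 and 1.38 in APP-PS1_CTR, against 0.85, 0.61, 0.41 and 0.96 in WT_CTR. It was 0.77, 1.06, 0.89, 1.39 and 0.99 in APP-PS1_UA-WASHOUT, and 1.30, 1.16 and 0.81 in APP-PS1_WASHOUT, against 0.72, 0.45, 0.66, 0.52 and 0.51 in WT_WASHOUT. Every array of both transgenic washout groups was above every WT_WASHOUT array, and 1 APP-PS1_UA array fell within the WT_CTR range. C1qc was 2.65, 2.62, 2.80 and 2.51 in APP-PS1_UA, and 2.83, 2.74 and 2.91 in APP-PS1_CTR, against 2.69, 1.99, 2.01 and 2.60 in WT_CTR. It was 2.71, 2.77, 2.73, 3.098 and 2.89 in APP-PS1_UA-WASHOUT, and 3.02, 3.09 and 2.34 in APP-PS1_WASHOUT, against 2.54, 1.95, 2.20, 2.14 and 2.01 in WT_WASHOUT. As in C1qa, APP-PS1_WASHOUT replicate 3 was the low array of its group and replicates 1 and 4 were the higher WT_CTR arrays.

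The transgenic increase of C1qb was 0.52 log2 units at the end of treatment (adjusted p = 0.391) and 0.52 after washout (adjusted p = 0.0116). For C1qc it was 0.50 (adjusted p = 0.658) and 0.65 (adjusted p = 0.0112). Each C1q gene was called in the washout comparison of APP-PS1_WASHOUT with WT_WASHOUT, and none of the 3 was called without APP-PS1_WASHOUT replicate 1 or without replicate 2. With each array centred on its median, adjusted p in that comparison was 0.0529 for C1qa, 0.0991 for C1qb and 0.0526 for C1qc. The 3 genes varied together over the 24 arrays. The genes most like C1qa were C1qc (Pearson r = 0.952) and C1qb (r = 0.942), out of 18561 genes. Most like C1qc was Fcer1g (r = 0.974), the common gamma chain of Fc receptors. These likenesses are over arrays that share slides and groups.

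C4b encodes the C4 protein that the C1 proteases cleave, and it separated the genotypes on every array. It was 3.92, 3.63, 4.20 and 3.98 in APP-PS1_UA, and 3.92, 4.43 and 4.06 in APP-PS1_CTR, against 3.06, 3.05, 2.89 and 2.98 in WT_CTR. It was 4.05, 4.10, 4.34, 4.63 and 4.63 in APP-PS1_UA-WASHOUT, and 4.28, 4.78 and 4.05 in APP-PS1_WASHOUT, against 3.04, 3.06, 3.27, 2.97 and 3.16 in WT_WASHOUT. All 15 transgenic arrays were above all 9 WT arrays, which held for none of the other 8 genes. Ordered by mean, the groups ran APP-PS1_WASHOUT (4.37 ± 0.38), APP-PS1_UA-WASHOUT (4.35 ± 0.28), APP-PS1_CTR (4.14 ± 0.27), APP-PS1_UA (3.93 ± 0.23), WT_WASHOUT (3.099 ± 0.115) and WT_CTR (2.99 ± 0.08), as mean ± SD. Neighbours in that order overlapped, apart from APP-PS1_UA and WT_WASHOUT.

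C4b was 2.21-fold higher in APP-PS1_CTR than in WT_CTR (log2 difference 1.14, SE 0.18, adjusted p = 0.00474) and 2.41-fold higher in APP-PS1_WASHOUT than in WT_WASHOUT (1.27, SE 0.17, adjusted p = 1.04e-05). The first of these was lost without APP-PS1_CTR replicate 2 (0.995, adjusted p = 0.0611), and with array row as a block it was 0.996 with an adjusted p of 0.556. C4b was 0.94 log2 units higher in APP-PS1_UA than in WT_CTR (adjusted p = 0.0261), a call lost when any 1 of 7 of the 8 arrays was left out. The differences of APP-PS1_UA from APP-PS1_CTR (-0.20, 95% interval -0.57 to 0.16) and of APP-PS1_UA-WASHOUT from APP-PS1_WASHOUT (-0.02, -0.37 to 0.33) were not called.

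The second C4b probe was 0.96, 0.70, 1.09 and 0.73 in APP-PS1_UA, and 1.15, 1.52 and 1.11 in APP-PS1_CTR, against 0.30, -0.04, -0.14 and 0.29 in WT_CTR. There every APP-PS1_UA array lay below every APP-PS1_CTR array and above every WT_CTR array. Its difference was 1.16 log2 units for APP-PS1_CTR over WT_CTR (adjusted p over probes = 0.0114). For APP-PS1_UA over WT_CTR it was 0.77 and not called (adjusted p = 0.217), unlike the first probe, and it was -0.39 for APP-PS1_UA against APP-PS1_CTR (adjusted p = 0.62). The neighbouring C4a, a near-identical copy that the reference lists as a transcribed pseudogene, was 1.69 log2 units higher in APP-PS1_WASHOUT than in WT_WASHOUT (adjusted p = 1.32e-05). Which of the 2 copies gave each probe its signal cannot be told from these files. Among the genes most like C4b over the arrays were Hcst (r = 0.968) and Trem2 (r = 0.963), a microglial receptor.

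C3 is the convergence point of the pathways and the source of C3b and C3a. It was 0.42, 0.76, -1.85 and -0.92 in APP-PS1_UA, and 0.40, 0.70 and 0.63 in APP-PS1_CTR, against 0.62, -0.31, 0.20 and 0.12 in WT_CTR. It was -1.24, -0.85, -0.74, 0.73 and -0.41 in APP-PS1_UA-WASHOUT, and 0.87, 1.18 and 0.72 in APP-PS1_WASHOUT, against -1.23, 0.03, 0.90, -0.74 and 0.58 in WT_WASHOUT. The APP-PS1_CTR and APP-PS1_WASHOUT arrays were all at 0.40 or above, while the other 4 groups each held arrays below 0. The SD was 1.21 in APP-PS1_UA and 0.89 in WT_WASHOUT.

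The main fit called C3 in no comparison. It was 0.42 log2 units higher in APP-PS1_CTR than in WT_CTR (SE 0.55, adjusted p = 0.905), which array row as a block turned to -0.729. It was 1.01 higher in APP-PS1_WASHOUT than in WT_WASHOUT (SE 0.53, adjusted p = 0.167). That washout difference was called in 1 of 15 alternatives, not counting those that left out 1 array (limma, adjusted p = 0.0194). With the authors' deposited scores left aside, it ran between 0.79 and 1.93 log2 units over them. C3 in APP-PS1_UA-WASHOUT was 1.42 log2 units below APP-PS1_WASHOUT (95% interval -2.52 to -0.32, unadjusted p = 0.0138, adjusted p = 0.489), with 4 of 5 arrays below all 3 APP-PS1_WASHOUT arrays. In APP-PS1_UA it was 0.97 below APP-PS1_CTR (95% interval -2.12 to 0.18, adjusted p = 0.693), with 2 of 4 arrays below and 1 above all APP-PS1_CTR arrays. The second C3 probe gave smaller differences for both, -0.87 and -0.45 log2 units. On that probe, APP-PS1_WASHOUT was 0.96 above WT_WASHOUT and was called (adjusted p over probes = 0.0333), so the 2 probes of C3 differ in that call.

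Markers of the choroid plexus, the epithelium that makes cerebrospinal fluid, differed between arrays of the same group. Their mean level over 14 of 14 listed genes was 3.06, -0.01, -2.50 and -3.27 in APP-PS1_UA, and 0.61, 2.20 and 2.44 in APP-PS1_CTR, against 2.67, -2.51, 0.86 and -1.81 in WT_CTR. The 2 APP-PS1_UA arrays with the lowest C3 were those with the lowest choroid plexus level. After washout it was 2.01, -2.44, 1.88, 2.07 and -1.84 in APP-PS1_UA-WASHOUT, and -0.90, -1.54 and 2.33 in APP-PS1_WASHOUT, against -3.33, -1.33, 1.48, -2.99 and 2.87 in WT_WASHOUT. There, the WT_WASHOUT arrays with the lowest choroid plexus levels also had the lowest C3, while 2 APP-PS1_UA-WASHOUT arrays had C3 below 0 at high choroid plexus levels and 2 APP-PS1_WASHOUT arrays had C3 above 0 at low ones. Ttr, which encodes the transthyretin of the choroid plexus, ranged over the arrays between 0.78 and 7.80. As a description over the 24 arrays, which share slides and groups, C3 and Ttr had a Pearson r of 0.544 in level and 0.623 in deviations from group means. The part of choroid plexus RNA in the C3 values was not tested. The genes most like C3 were Tppp3 (r = 0.877), Ccdc146 (r = 0.876) and Uckl1os (r = 0.874).

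Serping1 encodes the inhibitor of the C1 proteases. It was 0.62, -0.03, 0.42 and -0.22 in APP-PS1_UA, and 0.04, 1.48 and 0.82 in APP-PS1_CTR, against 0.73, -0.32, 0.98 and 0.01 in WT_CTR. It was -0.10, -0.51, 1.70, 0.87 and -0.37 in APP-PS1_UA-WASHOUT, and 0.22, -0.03 and 0.25 in APP-PS1_WASHOUT, against -0.06, -0.44, 0.57, -0.02 and 0.47 in WT_WASHOUT. The groups overlapped in every comparison, and the highest arrays were APP-PS1_UA-WASHOUT replicate 3 and APP-PS1_CTR replicate 2. Those 2 arrays also had the highest mean levels of 12 meningeal and fibroblast markers, 2.19 and 1.31, against a range of -0.44 to 1.12 on the other arrays. Over the 24 arrays, Serping1 and Ttr had a Pearson r of 0.641 in level and 0.608 in deviations from group means. The part of meningeal or choroid plexus RNA in these values was not tested.

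Serping1 differed by 0.43 log2 units between APP-PS1_CTR and WT_CTR (95% interval -0.51 to 1.37) and by 0.04 between APP-PS1_WASHOUT and WT_WASHOUT (-0.86 to 0.94), where median scaling turned the sign (-0.185). In APP-PS1_UA it was 0.58 below APP-PS1_CTR (-1.52 to 0.35), and in APP-PS1_UA-WASHOUT 0.17 above APP-PS1_WASHOUT (-0.72 to 1.07). The genes most like it were Cp (r = 0.941), which encodes ceruloplasmin, Kank2 (r = 0.930) and Col13a1 (r = 0.917).

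**Figure D2:**
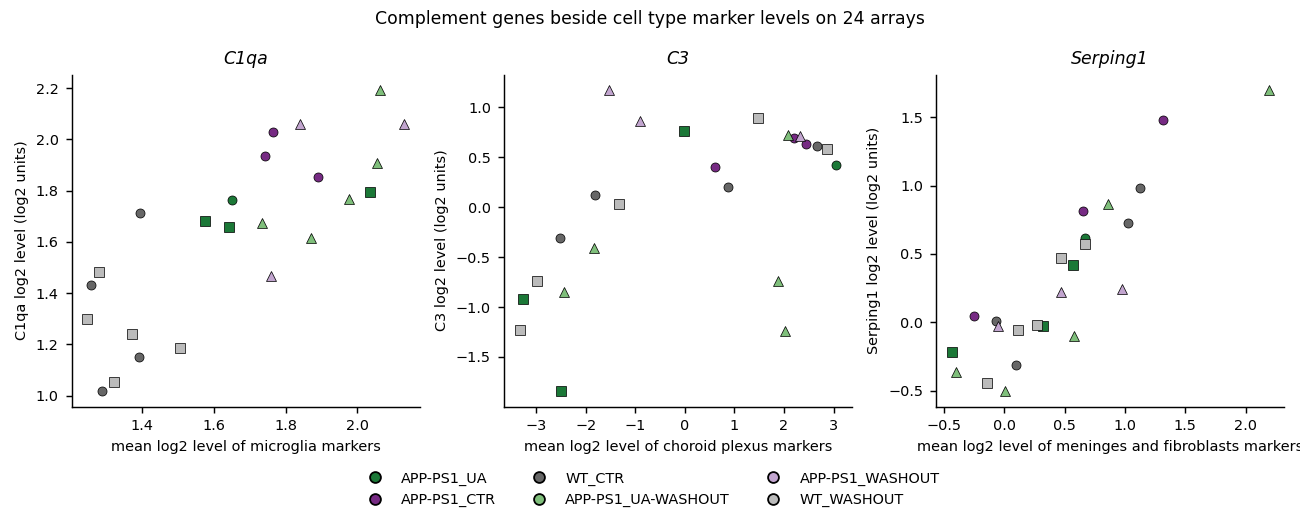
C1qa, C3 and Serping1 levels on 24 arrays (vertical axes, log2 units) plotted against the mean log2 level of microglial, choroid plexus and meningeal markers (horizontal axes), with colours for the group and shapes for the slide as in the plot of levels by group. The microglial level is lower on all WT arrays than on any transgenic array while C1qa overlaps between them, the lowest C3 array has a low choroid plexus level with exceptions among the others, and the 2 highest Serping1 arrays have the 2 highest meningeal levels.

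The receptor genes C3ar1 and C5ar1 encode receptors that guide microglia and other myeloid cells towards complement fragments. C3ar1 was -3.51, -3.98, -3.40 and -4.00 in APP-PS1_UA, and -3.81, -3.55 and -3.16 in APP-PS1_CTR, against -3.84, -4.83, -4.31 and -4.26 in WT_CTR. It was -3.15, -3.00, -3.56, -3.24 and -3.28 in APP-PS1_UA-WASHOUT, and -3.15, -3.25 and -3.57 in APP-PS1_WASHOUT, against -4.08, -5.06, -4.57, -4.88 and -5.03 in WT_WASHOUT. Every transgenic washout array was above every WT_WASHOUT array. At the end of treatment the APP-PS1_CTR arrays were above WT_CTR by a small margin, and 2 of 4 APP-PS1_UA arrays overlapped WT_CTR.

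C3ar1 was 2.64-fold higher in APP-PS1_WASHOUT than in WT_WASHOUT (log2 difference 1.40, SE 0.23, adjusted p = 0.000126), against a log2 difference of 0.81 for APP-PS1_CTR over WT_CTR (SE 0.24, adjusted p = 0.405). The gap between those 2 differences was 0.59 log2 units and was not called (95% interval -0.11 to 1.29, adjusted p = 0.268). The fold depended on the background correction, since with normexp on the median signal the washout difference was 0.705 (adjusted p = 0.00372) and was still called. The differences by urolithin A were -0.22 at the end of treatment (95% interval -0.72 to 0.29) and 0.08 after washout (-0.41 to 0.56).

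C5ar1 was -4.14, -4.82, -4.15 and -4.59 in APP-PS1_UA, and -4.14, -4.04 and -4.06 in APP-PS1_CTR, against -5.34, -5.08, -4.78 and -5.20 in WT_CTR. It was -4.84, -4.34, -4.01, -3.82 and -4.31 in APP-PS1_UA-WASHOUT, and -4.30, -4.03 and -4.29 in APP-PS1_WASHOUT, against -5.34, -5.17, -5.12, -5.09 and -4.47 in WT_WASHOUT. The 3 APP-PS1_CTR arrays lay close together, above all 4 APP-PS1_UA arrays and all WT_CTR arrays. The lowest APP-PS1_CTR array (-4.139) and the highest APP-PS1_UA array (-4.145) were nearly equal. WT_WASHOUT replicate 5 was the high array of its group.

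C5ar1 was 1.02 log2 units higher in APP-PS1_CTR than in WT_CTR (SE 0.22, adjusted p = 0.0704) and 0.84 higher in APP-PS1_WASHOUT than in WT_WASHOUT (SE 0.21, adjusted p = 0.00554). The first was called with array weights (adjusted p = 0.0121) and when only probes well above background on all arrays were tested (adjusted p = 0.0464). Of 17 alternatives, not counting those that left out 1 array, the other 15 did not call it. Over these alternatives the first difference ran between 0.40 and 1.06 log2 units, with the authors' deposited scores left aside. The C5ar1 probe was dim, with processed signals of 23.7 to 91.1. With normexp on the median signal the washout difference was 0.17 (adjusted p = 0.372), and with quantile normalization it was 0.34 (adjusted p = 0.292). In APP-PS1_UA it was 0.34 below APP-PS1_CTR (95% interval -0.81 to 0.12, adjusted p = 0.725). Most like C3ar1 were C4a (r = 0.945), Cd68 (r = 0.932), a lysosomal protein of macrophages, and Irf8 (r = 0.924). Most like C5ar1 were Gmfg (r = 0.931), Igsf6 (r = 0.925) and Lyz1 (r = 0.918), which encodes a lysozyme.

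Itgam encodes the CR3 chain that binds the C3 fragment iC3b. It was 4.83, 5.02, 4.93 and 4.93 in APP-PS1_UA, and 5.71, 5.10 and 5.03 in APP-PS1_CTR, against 5.37, 4.76, 4.87 and 5.20 in WT_CTR. It was 6.05, 6.12, 5.92, 6.35 and 6.34 in APP-PS1_UA-WASHOUT, and 6.42, 6.31 and 5.97 in APP-PS1_WASHOUT, against 5.11, 4.88, 4.91, 4.79 and 4.71 in WT_WASHOUT. The 8 arrays of slide 3, which are the 2 transgenic washout groups, were all above the other 16, and the transgenic arrays of slides 1 and 2 overlapped the WT arrays.

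Itgam was 2.56-fold higher in APP-PS1_WASHOUT than in WT_WASHOUT (log2 difference 1.35, SE 0.16, adjusted p = 2.8e-06), against 0.23 for APP-PS1_CTR over WT_CTR (SE 0.17, adjusted p = 0.833). The gap between these differences was 1.13 log2 units (95% interval 0.64 to 1.61, adjusted p = 0.0024). It was the only gap of the 9 genes that was called, and 11.6% of all features were called higher in that test. Stage, slide and genotype cannot be told apart in it. With array row as a block the gap was 0.96 and was not called (adjusted p = 0.187). In APP-PS1_UA, Itgam was 0.35 below APP-PS1_CTR (95% interval -0.70 to -0.00, unadjusted p = 0.0486, adjusted p = 0.67).

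The second Itgam probe, which carries another transcript accession of the gene, was -5.85, -5.29, -5.11 and -5.74 in APP-PS1_UA, and -5.91, -5.83 and -5.58 in APP-PS1_CTR, against -5.72, -5.41, -5.76 and -5.16 in WT_CTR. It was -4.81, -4.68, -4.34, -4.33 and -4.40 in APP-PS1_UA-WASHOUT, and -4.62, -3.48 and -4.93 in APP-PS1_WASHOUT, against -3.90, -5.96, -6.10, -6.14 and -7.08 in WT_WASHOUT. It was well above background on 19 of 24 arrays, and on 2 of 5 in WT_WASHOUT, so differences from that group rest partly on signals near background. Like the brighter probe it was higher in APP-PS1_WASHOUT than in WT_WASHOUT (1.49, adjusted p over probes = 0.018), and unlike it the mean was lower in APP-PS1_CTR than in WT_CTR (-0.26, adjusted p = 0.925) and higher in APP-PS1_UA than in APP-PS1_CTR (0.28, adjusted p = 0.898). On the second probe the gap between the transgenic differences of the 2 stages was 1.75 log2 units and was not called (adjusted p over probes = 0.0815). The genes most like Itgam on the brighter probe were Idua (r = 0.996), Mcidas (r = 0.993) and Hexim2 (r = 0.988), none of which is on the list of microglial markers.

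**Figure D3:**
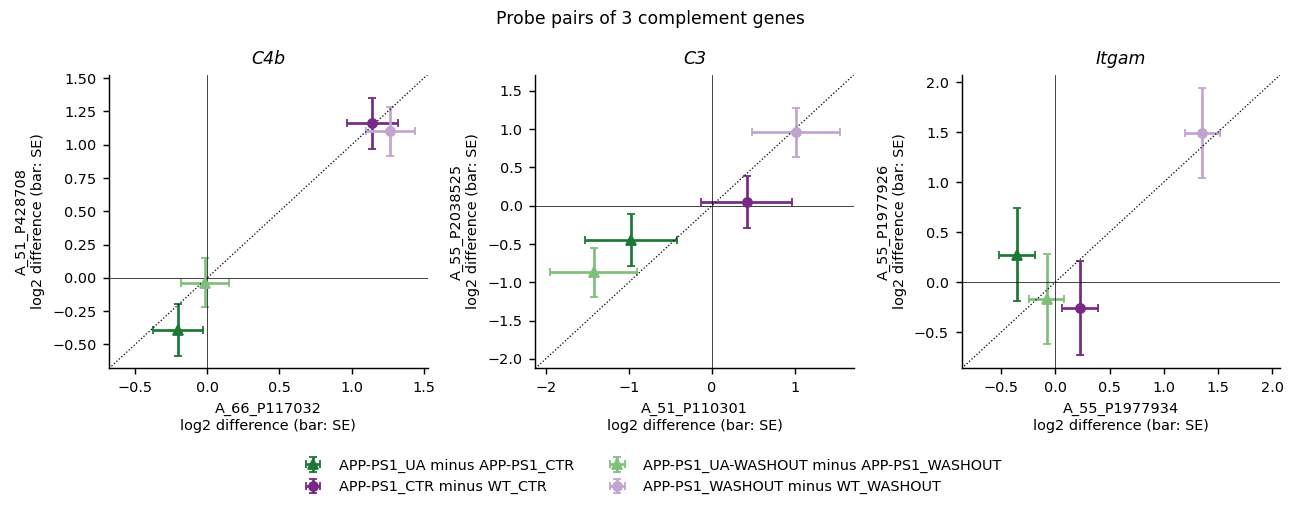
Log2 differences on the probe used for each gene (horizontal axes) and on the other probe (vertical axes) of C4b, C3 and Itgam in 4 comparisons, with bars for the standard error and a dotted line of equality. The C4b points lie near the line, and the Itgam probes have opposite signs in both comparisons at the end of treatment.

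Slide 2 allows 1 comparison of transgenic with WT arrays that crosses no slide, APP-PS1_UA replicates 2 to 4 against WT_WASHOUT, which differ in treatment and stage as well as genotype, and mostly in array row. It was added after the data were seen. There 7 of the 9 genes averaged higher in APP-PS1_UA. C4b was 0.84 log2 units higher (SE 0.15, adjusted p = 0.243), C3ar1 0.93 higher (adjusted p = 0.616) and C1qa 0.46 higher (adjusted p = 0.567), with all 3 APP-PS1_UA arrays above all 5 WT_WASHOUT arrays for each. The same held for C1qb, which makes 4 of the 9 genes, against 2.5% of all features. Itgam differed by 0.08 there (SE 0.12). By limma 0 of the 9 genes were called, 6 had an unadjusted p under 0.05, as did 1785 of all 35260 features, and 0.00851% of all features were called higher.

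The urolithin A groups were also compared with WT. In APP-PS1_UA against WT_CTR, C4b alone of the 9 genes was called, and 0.0567% of all features were called higher. C4b was also the only one of the 9 with every array higher, as were 1.61% of all features. In APP-PS1_UA-WASHOUT against WT_WASHOUT the 7 genes called in APP-PS1_WASHOUT were called higher again, with 23% of all features. Their log2 differences ran between 0.45 for C1qb and 1.47 for C3ar1, and every array was higher in 6 of the 9 genes, against 17.2% of all features. Over 15 alternatives, not counting those that left out 1 array, C5ar1 lost its call against WT_WASHOUT in 3. C1qa and C1qb lost theirs in 1 each. Both washout comparisons share the WT_WASHOUT arrays. In WT_WASHOUT against WT_CTR, 0 of the 9 genes were called (0 at an unadjusted p under 0.05), and 0.00284% of all features were called lower. The test of the urolithin A effect by stage called 0 of the 9 genes by limma (0 at an unadjusted p under 0.05), with 0.00851% of all features called lower.

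**Figure D4:**
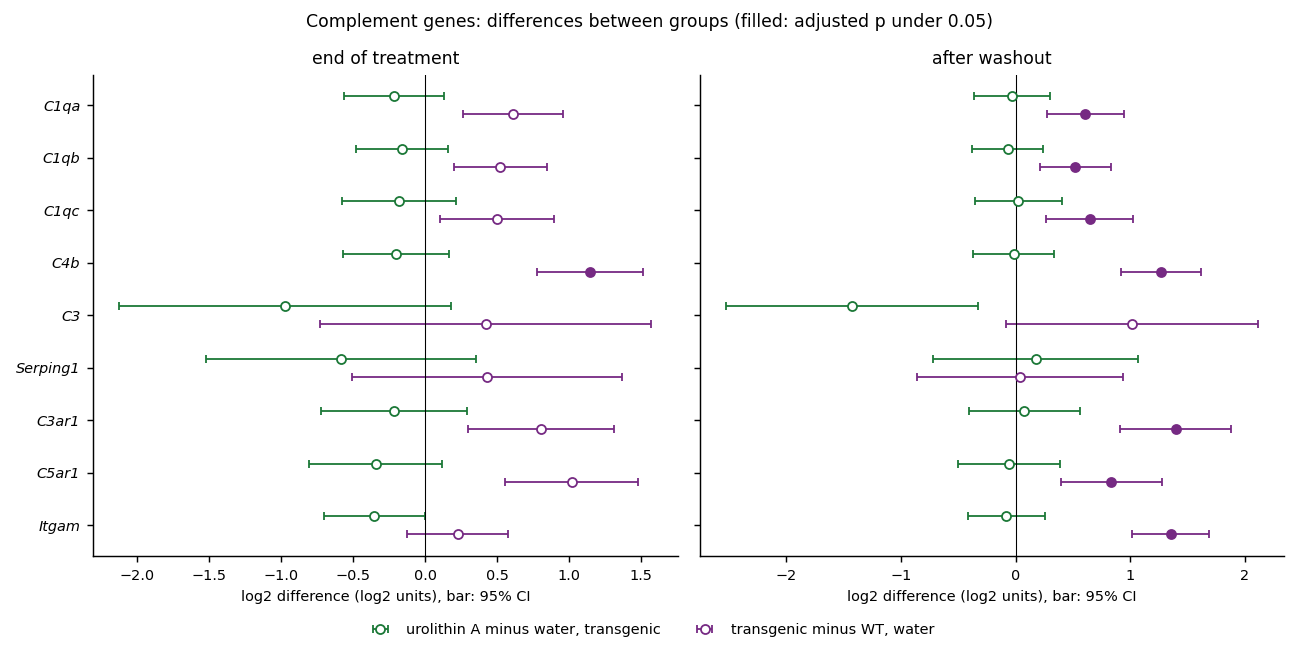
Log2 differences of the 9 genes with 95% confidence intervals, for urolithin A against water in transgenic mice (green) and for transgenic against WT mice on water (purple), at the end of treatment (left) and after washout (right), with filled points at an adjusted p under 0.05. C4b is filled at both stages, 6 more genes are filled after washout, and no green point is filled.

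With slide as a block, the effect of urolithin A at the end of treatment rests on APP-PS1_UA replicate 1, the only treated array on slide 1. The differences of that array from APP-PS1_CTR lay between -0.45 log2 units for Itgam and -0.01 for C3ar1, each with an adjusted p of 1, and 1 array gives no check of direction.

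Of 49 other complement genes listed, 41 were measured. At the end of treatment 1 of the 41 was called higher in APP-PS1_CTR than in WT_CTR and 0 were called lower. It was Itgax, which encodes CD11c, the alpha chain of the related receptor CR4, 7.97-fold higher (log2 difference 3.00, SE 0.31, adjusted p = 4.21e-05). In APP-PS1_WASHOUT against WT_WASHOUT, 5 of the 41 were called higher and 2 lower, against 19.8% of all features called higher and 7.71% called lower. Higher were Itgax (3.18), C4a (1.69), C7 (1.31), a component of the membrane attack complex, Itgb2 (0.43), the beta chain that CR3 and CR4 share, and Clu (0.36), which encodes clusterin, an inhibitor of that complex. Lower were Csmd1 (-0.45), a neuronal complement inhibitor, and Colec12 (-0.43), a collectin. The medians of the 41 genes were 0.07 log2 units at the end of treatment and 0.02 after washout, against -0.00 and 0.07 over all features.

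Itgb2 pairs with Itgam in CR3, and its levels on slide 3 overlapped those of slides 1 and 2. It averaged -1.68 ± 0.16 in APP-PS1_UA and -1.27 ± 0.09 in APP-PS1_CTR, against -2.01 ± 0.26 in WT_CTR, and -1.67 ± 0.28 in APP-PS1_UA-WASHOUT and -1.76 ± 0.32 in APP-PS1_WASHOUT, against -2.19 ± 0.05 in WT_WASHOUT (mean ± SD, n = 3 to 5). C7 was higher on every slide 3 array than on any other, at -1.85 ± 0.19 in APP-PS1_UA-WASHOUT and -1.87 ± 0.10 in APP-PS1_WASHOUT, against -3.18 ± 0.37 in WT_WASHOUT, and was the only 1 of the 41 whose transgene effect differed by stage (1.74, adjusted p = 0.00127). In APP-PS1_UA-WASHOUT against WT_WASHOUT, 6 of the 41 were called higher and 4 lower (Masp1, Cr1l, Csmd1 and Csmd3), against 23% of all features called higher and 13.4% called lower. The sixth higher gene was Mbl1, a mannose-binding lectin, which was well above background on 4 of 5 APP-PS1_UA-WASHOUT arrays and on 0 of the other 19. Mbl1 thus passed the filter on low signal only through the group where it is high, so its call cannot be taken as a test. Its level was at least 3.96-fold above WT_WASHOUT, and at least 3.03-fold above APP-PS1_WASHOUT, which shares slide 3. Both bounds are set by the lowest signals well above background. None of the 41 genes was called by limma between urolithin A and water in transgenic mice at either stage.

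Genes of the other steps of the classical pathway did not move past the threshold in APP-PS1_CTR against WT_CTR. C1ra and C1s1, the proteases of C1, differed by 0.32 and 0.23 log2 units, and C2, their second substrate, by 0.19. Cfb, a protease component of the alternative pathway, differed by 0.25. Cd59a, an inhibitor of the membrane attack complex, differed by 0.57. The adjusted p of these 5 genes lay between 0.873 and 0.969.

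Microglial markers had higher mean levels on the transgenic arrays than on the WT arrays. The mean level of 15 of 15 listed genes was 1.57 to 2.03 in APP-PS1_UA and 1.74 to 1.89 in APP-PS1_CTR, against 1.26 to 1.39 in WT_CTR, and 1.73 to 2.06 in APP-PS1_UA-WASHOUT and 1.76 to 2.13 in APP-PS1_WASHOUT, against 1.25 to 1.504 in WT_WASHOUT. Of the 15, 3 were called higher in APP-PS1_CTR and 9 in APP-PS1_WASHOUT, and 0 were called by urolithin A at either stage. Of all features, 0.167% were called higher in APP-PS1_CTR and 19.8% in APP-PS1_WASHOUT, so the 2 counts cannot be compared directly. The median differences of the 15 genes were 0.36 and 0.55 log2 units. The list holds Trem2 and Tyrobp, and its part in the complement differences was not tested. Astrocyte markers (10 of 10 measured) had means of 2.95 to 3.00 in APP-PS1_CTR, against 2.81 to 3.04 in WT_CTR, and 1 of the 10 was called higher. It was Gfap, a filament protein of reactive astrocytes named here after its values were seen, at 0.96 log2 units (adjusted p = 0.0471), and it was 0.87 higher in APP-PS1_WASHOUT than in WT_WASHOUT (adjusted p = 0.00128).

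Of 6 measured lymphocyte markers of 9 listed, 5 were called higher in APP-PS1_WASHOUT than in WT_WASHOUT, against 19.8% of all features. Their mean level was -3.05 to -2.78 in APP-PS1_UA-WASHOUT and -3.17 to -2.19 in APP-PS1_WASHOUT, against -4.60 to -3.89 in WT_WASHOUT, and on slides 1 and 2 it was -4.60 to -3.71. Like Itgam and C7 these markers were higher on slide 3 as a whole, and Cd3g was well above background on 3 of 24 arrays. Neutrophil and monocyte markers, which also carry Itgam, had 2 of 10 measured genes called higher in APP-PS1_WASHOUT than in WT_WASHOUT, near the 19.8% of all features, and Ccr2 was well above background on 4 of 24 arrays. The part of infiltrating blood cells in the washout differences was not tested.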

How the data were processed

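Hippocampal RNA of 24 samples in 6 groups was measured on one-colour Agilent arrays. The intensity values are the processed signals of Feature Extraction 12.0.3.1, background-corrected per the file headers. The authors also deposited a table of scores, which set against the scanner values is a per-array standardized log signal. How the submitters normalized it is not given in the labels or headers, and it served as an alternative.

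Spots with outlier flags were dropped, repeated spots averaged, and log2 signals set relative to the array's 75th percentile. Probes well above background on at least 3 arrays were kept (43988 of 56605), less 15 with under 2 values in a group. Each gene was represented by its brightest kept probe, giving 35260 features. A model of 6 group means was fitted to all 24 arrays with limma 3.58.1 in R 4.3.3, with 9 contrasts and Benjamini-Hochberg adjustment over all features. Fits were tested on simulated data.

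The 9 genes and all lists were chosen with earlier results of these data known. The text names the 9 genes with every probe, other complement genes that were called in any contrast or preset by name, and the 3 genes most like each of the 9 by Pearson r over the arrays, except for a few items that are not reported here. The alternatives were other scalings, a normexp background correction of the median signal, the deposited scores, probe filters and summaries, array weights, a variance trend, blocks for slide, array row and replicate number, and leaving out each array. Same-numbered samples correlated between -0.238 and 0.318 in their deviations from group means and no contrast had every pair over 0.1, so the numbers were not treated as pairs.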

Additional observations from a re-analysis of the deposited data

Results flagged for a closer look

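C5ar1 on WT_WASHOUT replicate 5 was -4.47 log2 units, apart from the other 4 arrays of its group at -5.34 to -5.09. Its gap to the nearest array was 0.719 of the group's range, against a critical value of 0.71. It was the 1 array that stood apart in 48 groups and probes examined, and chance gives about 1 in 20.

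The transgene difference of Itgam on its brighter probe was 1.13 log2 units larger after washout than at the end of treatment. The test of the difference itself called it (limma, adjusted p = 0.00244). All arrays with high Itgam on that probe were on slide 3, which held both transgenic washout groups and no other arrays. Slide and genotype therefore cannot be told apart at the washout stage.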

How the results depend on the processing

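The 9 genes' differences kept direction and side of the threshold in 862 results under alternatives that kept all arrays, while 25 lost a call, 3 gained one and 22 changed sign; the cause was not tested. For APP-PS1_CTR against WT_CTR, 2 genes were called when probes had to be well above background on all arrays and with array weights, and 0 with only the arrays compared, with slide 1 only and with array row as a block. Itgam was then -0.0167 with the mean of its probes, and C3 -0.729 with the row block. For APP-PS1_WASHOUT against WT_WASHOUT, 4 genes were called with median scaling, and Serping1 was -0.185 with it, -0.03 in the deposited scores and -0.0338 with the replicate block. Median scaling moved the median of all features in that comparison to -0.15, against 0.07. Serping1 in APP-PS1_UA-WASHOUT against WT_WASHOUT was -0.0792 with median scaling. For APP-PS1_UA against WT_CTR, 0 genes were called with the scores, the mean of probes, only the arrays compared, slide 1 only, or blocks for slide, row or replicate, and with the slide block or slide 1 only C3 was 0.262 and Serping1 0.264. C5ar1 in APP-PS1_UA against APP-PS1_CTR was 0.0248 with the row block. The gap by stage called 0 genes with the row block.

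For APP-PS1_UA-WASHOUT against APP-PS1_WASHOUT, where no gene was called, signs changed for C5ar1 with normexp (0.0214), for C1qc with median scaling (-0.0472) and array weights (-0.0819), for C1qa, C4b and C3ar1 with quantile normalization (0.00263, 0.0598 and -3.7e-05), for C1qa, C4b, C3ar1 and Itgam in the scores (0.00933, 0.046, -0.0347 and 0.0533), and for Serping1 with the row block (-0.166). Leaving out 1 array at a time gave 0 to 1 called genes for APP-PS1_CTR and for APP-PS1_UA against WT_CTR, and 4 to 7 for APP-PS1_WASHOUT against WT_WASHOUT. Without 1 array Serping1 ran between -0.38 and 0.0548 in APP-PS1_UA against WT_CTR, -0.10 and 0.16 in APP-PS1_WASHOUT and -0.13 and 0.42 in APP-PS1_UA-WASHOUT against WT_WASHOUT. Against APP-PS1_WASHOUT, APP-PS1_UA-WASHOUT then ran between -0.23 and 0.0693 for C1qa, -0.21 and 0.0347 for C1qb, -0.22 and 0.16 for C1qc, -0.18 and 0.19 for C4b, -0.0448 and 0.16 for C3ar1, -0.17 and 0.0856 for C5ar1, -0.17 and 0.38 for Serping1, and -0.21 and 0.0126 for Itgam. With the replicate number as a block, 1 gene was called in APP-PS1_CTR against WT_CTR and 7 in each transgenic washout group against WT_WASHOUT, as without it. C3ar1 and C5ar1 had dim signals, and their washout differences were smaller with normexp.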
